A study of Mus musculus with 6 samples.

Results

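The genes described here make fatty acids from cytosolic acetyl-CoA, or regulate that synthesis, and they were read in kidney RNA of wild-type and Hspa8 knockout mice. They were chosen by gene symbol as 10 genes: Acly, Me1, Acaca, Acacb, Fasn, Elovl6, Scd1, Scd2, Thrsp and Mlxipl. All 10 were found among the 34714 genes of the deposited table. All 10 passed the filter of a mean of at least 1 FPKM over the libraries, as did 12174 genes in all. FPKM count sequenced fragments relative to transcript length and library total, so levels can be set side by side between genes. Mlxipl encodes a transcription factor and Thrsp a small regulator, so the set is not made of enzymes alone.

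The series is about HSC70, the chaperone that Hspa8 encodes, and its link to SREBPs in diabetic kidney disease. SREBPs are sterol-regulated transcription factors that INSIG and SCAP hold back or escort. The libraries come from kidneys of mice aged 8 weeks on normal chow, 3 labelled wild-type and 3 labelled Hspa8 knockout, and their labels name no induction of diabetes. The wild-type titles carry the strain abbreviation C57, and the knockout titles name no strain. The animals obtained for the series included an Hspa8-floxed line on C57BL/6J and Cdh16-Cre mice, in which the Cdh16 promoter drives Cre in tubule epithelium. The labels do not state that the knockout libraries came from that cross, whether the controls carried Cre or the floxed allele, or whether the 3 samples of a group were separate animals. The p-values therefore measure only how these 3 samples of a group vary, and that variation may be technical. Cells outside the tubules would keep the gene in such a cross. Values are given below in the order of replicates 1, 2 and 3 of each group. Hspa8 itself read 1058, 1092 and 1318 FPKM in the wild-type kidneys and 650.1, 699.2 and 780.7 FPKM in the knockouts, so the groups did not overlap. Its log2 fold change was -0.70 (standard error 0.122), and limma, a linear model fitted over all tested genes, gave an adjusted p of 0.866 (exact two-sided permutation p = 0.1, the smallest that 3 against 3 can give).

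De novo synthesis starts from citrate that leaves the mitochondrion. ATP citrate lyase (Acly) splits it to acetyl-CoA, acetyl-CoA carboxylase (Acaca, Acacb) makes malonyl-CoA, fatty acid synthase (Fasn) builds palmitate with NADPH that malic enzyme (Me1) helps to supply, and ELOVL6 and the stearoyl-CoA desaturases (Scd1, Scd2) lengthen and desaturate the product. SREBP1, the product of Srebf1, and the glucose-sensing factor ChREBP, the product of Mlxipl, are the main transcriptional drivers of these genes in liver and fat. The kidney uses fatty acids chiefly as fuel, and lipid build-up in tubule cells is a known feature of diabetic kidney disease.

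The start-site regions of the genes that the results turn on are shown first, because the series asks about SREBP, which acts through such regions. RefSeq (GRCm38.p6) gave windows from 250 bases before to 50 bases after the start site for 8 of the 10 genes, with 10 windows in all; Scd1 and Scd2 had none. Below are those of Fasn, the central enzyme (chr11:120824498-120824797, minus strand, at a start site inside the gene span given further on), of Thrsp, the gene whose groups did not overlap (chr7:97417501-97417800, minus strand), and of Insig1, the SREBP target with the smallest p between the groups (chr5:28071162-28071461, plus strand). Capitals mark any match, on either strand, to ATCACCC (a core of the sterol regulatory element that SREBPs bind), CCAAT (bound by NF-Y), GGGCGG (the GC box bound by SP1) or CACGTG (the E box, bound by USF factors and by ChREBP with MLX).
Fasn: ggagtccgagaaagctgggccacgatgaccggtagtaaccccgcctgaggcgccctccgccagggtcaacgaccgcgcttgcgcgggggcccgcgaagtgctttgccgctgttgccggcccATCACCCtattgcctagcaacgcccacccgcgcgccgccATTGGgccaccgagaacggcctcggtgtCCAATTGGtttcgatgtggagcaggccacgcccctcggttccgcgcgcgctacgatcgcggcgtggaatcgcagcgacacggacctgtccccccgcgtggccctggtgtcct
Thrsp: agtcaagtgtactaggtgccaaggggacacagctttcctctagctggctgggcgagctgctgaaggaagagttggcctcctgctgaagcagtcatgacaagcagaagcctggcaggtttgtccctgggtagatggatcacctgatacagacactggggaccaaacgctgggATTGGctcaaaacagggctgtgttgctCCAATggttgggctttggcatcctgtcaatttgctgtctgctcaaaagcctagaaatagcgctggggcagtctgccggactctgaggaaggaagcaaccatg
Insig1: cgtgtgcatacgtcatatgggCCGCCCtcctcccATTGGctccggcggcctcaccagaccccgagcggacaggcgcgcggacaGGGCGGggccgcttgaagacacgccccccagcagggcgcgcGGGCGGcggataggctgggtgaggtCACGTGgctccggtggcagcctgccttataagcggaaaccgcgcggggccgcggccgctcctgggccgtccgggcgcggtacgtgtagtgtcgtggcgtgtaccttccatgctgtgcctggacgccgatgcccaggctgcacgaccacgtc
The Fasn window held ATCACCC with its first base at -129 from the start site, followed by CCAAT matches at -90, -62 and -59, of which the last pair overlap. The Thrsp window held CCAAT matches at -79 and -52 and none of the other motifs. The Insig1 window held GC boxes, a CCAAT match at -216 and an E box at -101. Among the 8 genes with a window, ATCACCC was found in 1 (Fasn), CCAAT in 6, the GC box in 3 and the E box in 1 (Mlxipl). Of all 32851 RefSeq windows of this length, 2.69% held ATCACCC, 37.4% CCAAT, 35.7% the GC box and 7.15% the E box. The counts are per gene and the shares per window, and the motifs were chosen after the sequences were seen. These are letter matches and no measurement of binding.

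None of the 10 genes passed the test in the knockout. With limma and Benjamini-Hochberg adjustment over all tested genes, 0 of 10 had an adjusted p under 0.05, against 0% of the 12174 genes tested, and 0 of 10 had an unadjusted p under 0.05, against 5.17% of all. The groups did not overlap for 1 of the 10, Thrsp, which was lower in all 3 knockout libraries, against 8.57% of all genes that were apart and lower in the knockout and 2.01% that were apart and higher. The fitted difference was above 0 for 8 of the 10, where 35.1% of all tested genes lay above 0. The median log2 fold change of the 10 was 0.0914 and that of all tested genes was -0.0399, with fold changes on the scale of log2(FPKM + 1), which understates the change of low genes. The background depends on scaling. With library sums, medians or quantiles equalised, the median of all genes was -0.0009, 0.0096 or 0.0024. That of the 10 was then 0.139, 0.144 or 0.130, with 8 above 0 each time. The share of all genes above 0 was not counted under these scalings. In whole kidney, fewer cells of a type and less RNA per cell cannot be told apart. Without wild-type replicate 3 the count above 0 was 6 and the median 0.049, and without wild-type replicate 1 the median was 0.151.

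**Figure D1:**
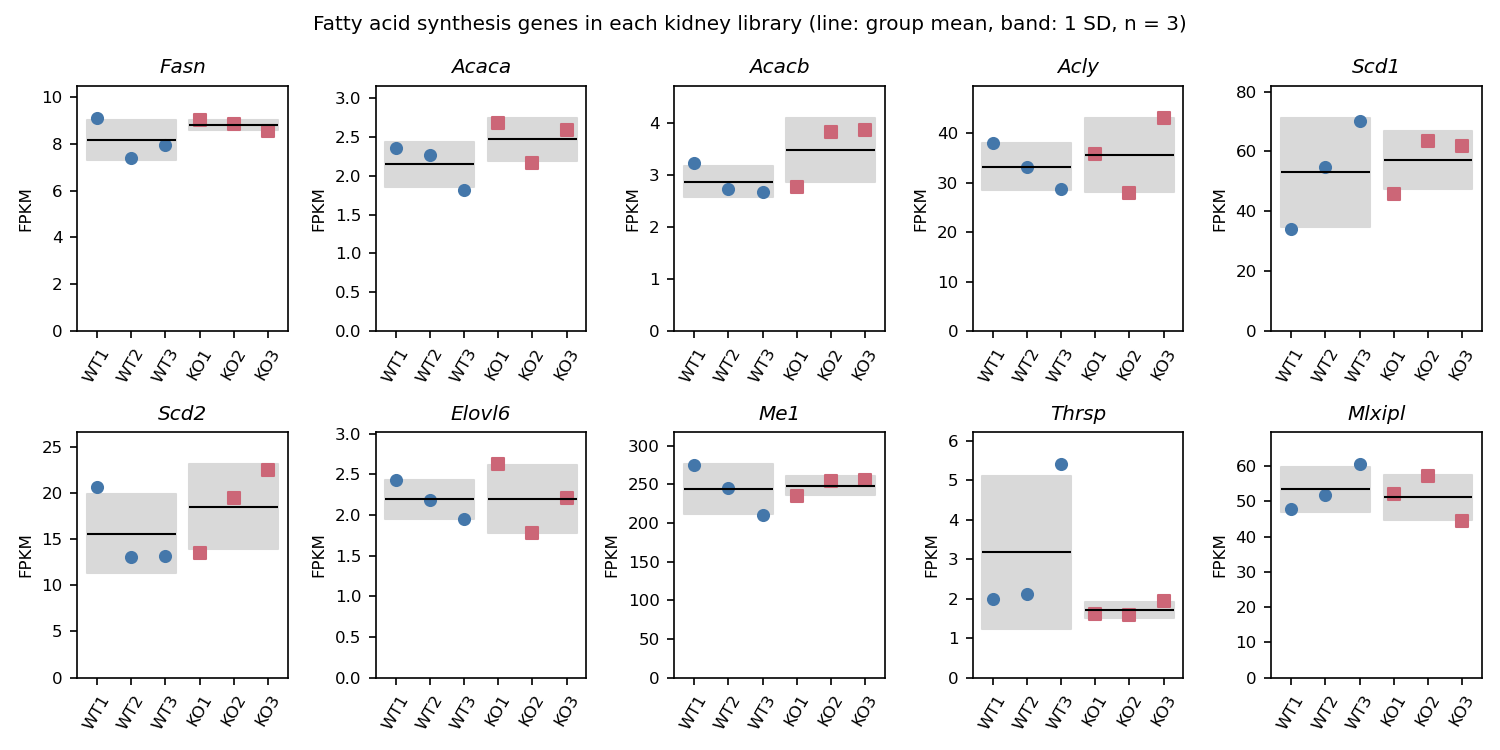
FPKM of each of the 10 genes (y axes, from 0) in each library (x axes: WT, wild-type replicates; KO, Hspa8 knockout replicates), with the group mean as a line and 1 SD as a band, n = 3. The groups overlap in every panel except Thrsp, where wild-type replicate 3 stands at 5.4 and the other libraries between 1.59 and 2.12.

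The genes spanned a wide range of levels in kidney. Me1 was the highest, at a mean of 246 FPKM over the 6 libraries, and made up 52.2% to 63.3% of the summed FPKM of the 10. Scd1 (55.1) and Mlxipl (52.3) followed, and their order differed between libraries, with Scd1 above Mlxipl in 4 of 6. Acly (34.5), Scd2 (17.1) and Fasn (8.48) came next, each above the following gene in all 6 libraries with ranges that did not overlap. Acacb (3.19), Thrsp (2.44), Acaca (2.31) and Elovl6 (2.19) formed the low end with overlapping ranges. The sum of the 10 was 400.5 to 446.8 FPKM, or 0.0966% to 0.117% of the library's summed FPKM. Fasn varied least between libraries, with its highest value 1.23 times its lowest, and Thrsp varied most, at 3.39 times, followed by Scd1 at 2.06 times.

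Acly, which makes the cytosolic acetyl-CoA, lies on chromosome 11 (100476352 to 100528000 in GRCm38.p6). It had 38.1, 33.2 and 28.7 FPKM in the wild-type kidneys and 35.8, 28 and 43.1 FPKM in the knockouts. The highest and the lowest library were both knockouts. The log2 fold change was 0.08, the standard error 0.164 and the 95% interval ran from -0.30 to 0.46 (limma adjusted p = 0.998). Leaving out wild-type replicate 3 or knockout replicate 3 turned its sign (-0.02 and -0.06).

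Me1, the cytosolic malic enzyme that yields NADPH, lies on chromosome 9 (86581363 to 86695914). It stood at 274.9, 244.7 and 210.6 FPKM in the wild-type kidneys and 234.5, 254.5 and 255.6 FPKM in the knockouts, so the 3 knockout values lay inside the wild-type range. The log2 fold change was 0.04 with a 95% interval from -0.23 to 0.30, that is from 0.854-fold to 1.23-fold. Without wild-type replicate 3 it was -0.06. Of the 50-base stretches of its longest coding transcript, 32.8% also occur in transcripts of other genes in the GENCODE annotation, Gm7049, Gm48795 and Gm7329. The sources used here do not say how the authors' counting treated such reads, so the Me1 level is uncertain to that extent.

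The carboxylases differ in place: ACC1, from Acaca, is cytosolic and feeds synthesis, while ACC2, from Acacb, sits at the mitochondrion, where its malonyl-CoA restrains carnitine palmitoyltransferase. Acaca (chromosome 11, 84129635 to 84401651) had 2.36, 2.27 and 1.82 FPKM in the wild-type kidneys and 2.68, 2.16 and 2.59 FPKM in the knockouts. The top pair of values were knockouts, with knockout replicate 2 inside the wild-type range. Acacb (chromosome 5, 114146321 to 114250761) had 3.23, 2.74 and 2.68 FPKM in the wild-type kidneys and 2.78, 3.83 and 3.87 FPKM in the knockouts. Knockout replicates 2 and 3 were above every wild-type library and knockout replicate 1 was not. The log2 fold changes were 0.14 for Acaca (standard error 0.11, limma adjusted p = 0.998) and 0.20 for Acacb (standard error 0.124, limma adjusted p = 0.995). Their 95% intervals reached from 0.926-fold to 1.32-fold and from 0.945-fold to 1.4-fold. Acaca was at 0.06 without wild-type replicate 3, and Acacb at 0.32 without knockout replicate 1 and 0.11 without the pair of wild-type replicate 3 and knockout replicate 2. For Acaca, 52.6% of the 50-base stretches of the longest coding transcript also occur in Gm5182, so its level is uncertain in the same way as that of Me1.

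The balance of the carboxylases did not differ beyond its spread. Acaca made up 42.2%, 45.3% and 40.4% of the summed FPKM of Acaca and Acacb in the wild-type kidneys and 49%, 36% and 40.1% in the knockouts. The knockout libraries held both the highest and the lowest share. The mean share was 42.7% ± 2.47 (SD, n = 3) in wild-type and 41.7% ± 6.64 (SD, n = 3) in knockout, an exact two-sided permutation p of 0.8 (1 after adjustment over the 2 pairs compared). Such a share within a library does not depend on how the library is scaled.

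Fasn, the multifunctional enzyme that builds palmitate, lies on chromosome 11 (120805958 to 120825166) and carries the window shown above with its sterol element core. It had 9.1, 7.41 and 7.96 FPKM in the wild-type kidneys and 9, 8.85 and 8.55 FPKM in the knockouts. The 3 knockout values lay close together, above wild-type replicates 2 and 3 and below wild-type replicate 1. The mean was 8.16 ± 0.86 FPKM (SD, n = 3) over the wild-type kidneys and 8.8 ± 0.227 FPKM (SD, n = 3) over the knockouts, a log2 fold change of 0.10 (standard error 0.0923; limma adjusted p = 0.998). Its 95% interval ran from 0.926-fold to 1.24-fold, the narrowest among the 10 genes. The log2 fold change was 0.17 without wild-type replicate 1 and 0.04 without wild-type replicate 2. With library medians equalised the Fasn groups no longer overlapped, with the knockout higher, and those of Thrsp did. Under that scaling Fasn was the 1 gene of the 10 that was apart, against 10% of all genes, 4.9% of them higher in the knockout.

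Elovl6, the elongase that takes palmitate to stearate, lies on chromosome 3 (129532386 to 129638495). It had 2.43, 2.18 and 1.95 FPKM in the wild-type kidneys and 2.62, 1.78 and 2.21 FPKM in the knockouts. The knockout libraries spanned more than the whole wild-type range. Its log2 fold change was 0.00 with a 95% interval from -0.28 to 0.28 (limma adjusted p = 0.998), and the sign turned where wild-type replicate 3, or 1 of knockout replicates 1 and 3, was left out. Of the 50-base stretches of its longest coding transcript, 4.4% also occur in other genes. For Fasn, Acacb, Acly, Thrsp and Mlxipl that share was 0%.

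The desaturases, which turn saturated into monounsaturated fatty acids, lie close together on chromosome 19. Scd1 (44394450 to 44407709) had 34, 54.7 and 70.3 FPKM in the wild-type kidneys and 45.9, 63.6 and 61.9 FPKM in the knockouts. The wild-type libraries held the highest and the lowest value and the knockout libraries lay between them. Scd2 (44293676 to 44306864) had 20.6, 13.1 and 13.2 FPKM in the wild-type kidneys and 13.5, 19.5 and 22.5 FPKM in the knockouts. Wild-type replicate 1, the lowest library for Scd1, was the highest wild-type library for Scd2.

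The log2 fold change of Scd1 was 0.15 (95% interval -0.42 to 0.72) and that of Scd2 0.23 (-0.27 to 0.73), both with a limma adjusted p of 0.998. The sign of Scd1 turned without wild-type replicate 1 (-0.13), and its value was 0.38 without wild-type replicate 3. That of Scd2 was 0.43 without wild-type replicate 1 or knockout replicate 1, 0.13 without wild-type replicate 2 or wild-type replicate 3, and 0.08 without knockout replicate 3. Scd1 made up 62.3%, 80.7% and 84.2% of the summed FPKM of Scd1 and Scd2 in the wild-type kidneys and 77.3%, 76.5% and 73.3% in the knockouts. The mean share was 75.7% in both groups, with an SD of 11.7 in wild-type and 2.08 in knockout (n = 3 each; exact two-sided permutation p = 1). The spread itself was not tested. The family members Scd3 and Scd4 stayed between 0.0135 and 0.103 FPKM in every library. Of the 50-base stretches of their longest coding transcripts, 4.66% of Scd1 and 4.01% of Scd2 occur in other genes, among them one another, Scd3 and Scd4.

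Mlxipl, the gene of ChREBP, lies on chromosome 5 (135089890 to 135139768). It had 47.8, 51.8 and 60.5 FPKM in the wild-type kidneys and 52.1, 57.1 and 44.5 FPKM in the knockouts. The lowest library was a knockout and the highest a wild-type, with the rest mixed. The log2 fold change was -0.06 with a 95% interval from -0.35 to 0.23 (limma adjusted p = 0.998), and its sign turned without wild-type replicate 3 (0.03) or knockout replicate 3 (0.04). Of a list of 9 genes that ChREBP is known to induce, 8 were tested and 0 passed, and 4 lay on each side of 0, the list median being 0.0093 on the log2 scale. Arrdc4, an arrestin-related target, had a log2 fold change of -0.17 and Gpd1, glycerol phosphate dehydrogenase, 0.12.

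Thrsp, also called Spot14, encodes a small acidic protein that promotes lipogenesis and is abundant in fat, liver and mammary gland. It lies on chromosome 7 (97412933 to 97417550). It had 2, 2.12 and 5.4 FPKM in the wild-type kidneys and 1.6, 1.59 and 1.95 FPKM in the knockouts. Wild-type replicate 3 stood far above the other 5 libraries, and the gap between wild-type replicate 1 and knockout replicate 3 was 2 against 1.95. The log2 fold change was -0.53, the standard error 0.267 and the 95% interval ran from -1.14 to 0.09 (limma adjusted p = 0.973, exact two-sided permutation p = 0.1, the smallest possible). Without wild-type replicate 3 it was -0.17. The groups overlapped with library sums, library medians or quantiles equalised.

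Most markers of fat cells were also highest in that library. Of 12 adipocyte markers, 9 were highest in wild-type replicate 3, and the kidney libraries held 7 of the 12 at a mean of at least 1 FPKM. Lipe and Lpl were not highest there, and Cd36 was lowest there (137.4 FPKM, against 187.5 to 231.2 FPKM elsewhere). The share of all genes that were highest in that library was not counted. Cfd, the adipsin gene, had 1.27, 2.25 and 15.1 FPKM in the wild-type kidneys and 2.64, 1.4 and 3.79 FPKM in the knockouts. Adipoq, the adiponectin gene, had 0.192, 0.388 and 2.3 FPKM in the wild-type kidneys and 0.546, 0.166 and 0.719 FPKM in the knockouts. Plin1, of the lipid droplet coat, had 0.562 FPKM in wild-type replicate 3 and 0.0146 to 0.229 FPKM elsewhere, and Cidec, of the same droplets, 1.17 and 0.2 to 0.745 FPKM. Outside wild-type replicate 3, Adipoq, Plin1 and Cidec were under 1 FPKM in every library, and Lep, the leptin gene, was listed at 0 in wild-type replicate 1 and knockout replicate 1. The summed FPKM of the 12 markers, most of it from genes that other kidney cells also express, ran from 712.9 to 795.7 in wild-type and from 687.3 to 785.9 in knockout. The part of fat cells in the Thrsp value was not tested.

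**Figure D2:**
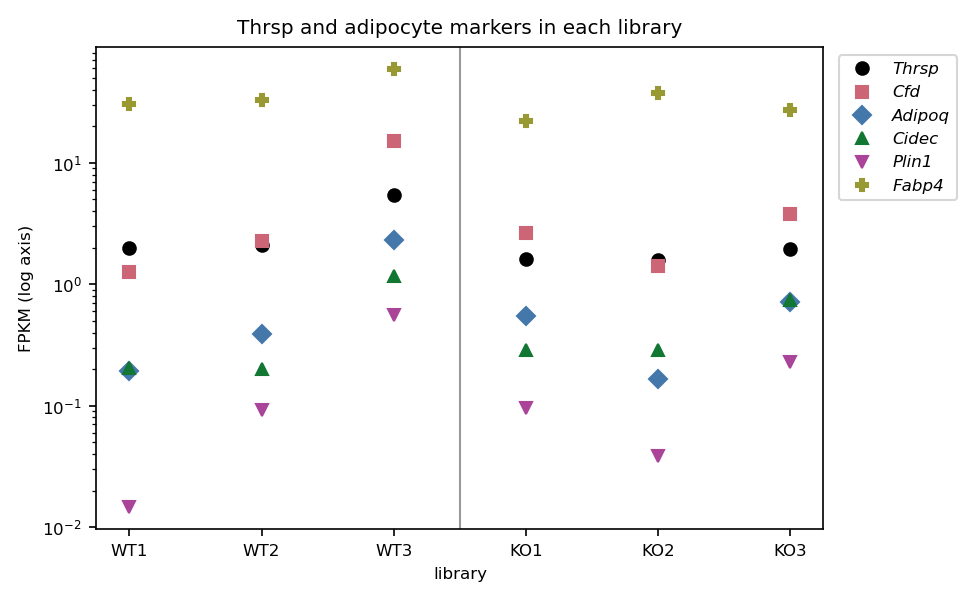
FPKM of Thrsp and of 5 adipocyte markers (y axis, log scale) in each library (x axis; WT, wild-type replicates; KO, Hspa8 knockout replicates). All 6 genes are highest in wild-type replicate 3, with Cfd at 15.1 FPKM there and between 1.27 and 3.79 FPKM in the other libraries. The adipocyte markers Cd36, Lipe and Lpl, which were not highest there, are not drawn.

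A pair of libraries, wild-type replicate 3 and knockout replicate 2, was at an end of the order for some of the genes and for 8 of the 11 tubule markers. It was the lowest pair for 4 markers (Lrp2, Cubn, Slc34a1 and Slc12a3), the highest for 4 (Kap, Umod, Slc12a1 and Aqp2) and neither for the other 3, among them Slc22a6 and Slc7a13. Proximal tubule markers thus lay on both sides. The pair was lowest for Lrp2, the proximal tubule receptor megalin, with 102.0 and 111.2 FPKM there and 142.0 to 180.6 FPKM in the others. It was highest for Kap, the androgen-regulated proximal tubule gene (42280 and 42143 FPKM, against 30598 to 37355 FPKM), for Umod, of the thick ascending limb (1187 and 1272 FPKM, against 762.1 to 1061 FPKM) and for Aqp2, the water channel of the collecting duct (83.8 and 113.6 FPKM, against 37.2 to 68.8 FPKM). Acly, Acaca and Elovl6, 3 of the 10 genes, were also lowest in this pair, a pattern that 15.2% of all tested genes had. Scd1 and Mlxipl, 2 of the 10, were highest in it, as were 22.7% of all tested genes. The same shares of all genes stand beside the counts of tubule markers. Whether any of these small counts differs from its share was not tested. The part of the tubule segments in these values was not tested. Without the pair, 0 of the 10 genes were called, 7 lay above 0 and the median was 0.0838. Thrsp was then at -0.14, Me1 at -0.08 and Scd1 at 0.30.

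**Figure D3:**
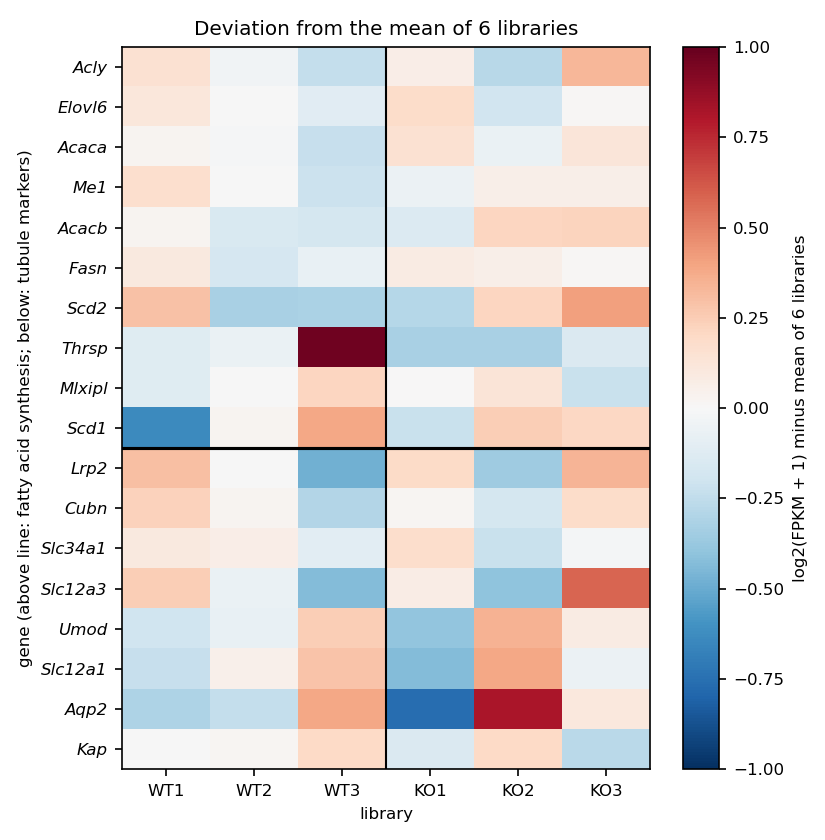
Colour gives log2(FPKM + 1) minus the mean of the 6 libraries for each of the 10 genes (above the line) and 8 tubule markers (below it), by library (x axis; WT, wild-type replicates; KO, Hspa8 knockout replicates). Acly, Acaca and Elovl6 share the low values of Lrp2 in wild-type replicate 3 and knockout replicate 2, and the strongest colour is Thrsp in wild-type replicate 3, at 0.974.

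Upstream of these genes, Insig1 and Srebf1 stood higher in the knockout. Insig1, which encodes the retention protein of SCAP and is itself an SREBP target, had 13.8, 12.6 and 13.6 FPKM in the wild-type kidneys and 19.4, 25.1 and 23 FPKM in the knockouts, a log2 fold change of 0.71 (95% interval 0.47 to 0.96). Srebf1 had 9.01, 7.31 and 8.42 FPKM in the wild-type kidneys and 10.5, 12.9 and 10.8 FPKM in the knockouts, a log2 fold change of 0.42 (0.17 to 0.67). In both, every knockout library lay above every wild-type one, as for 2.01% of all tested genes. Neither passed over all genes (limma adjusted p = 0.866 each). Beside Insig1 and Srebf1, the log2 fold changes were 0.23 for Scd2, 0.20 for Acacb, 0.15 for Scd1 and 0.14 for Acaca. Those of Fasn, Acly, Me1 and Elovl6 were 0.10, 0.08, 0.04 and 0.00. The intervals of all these enzymes include 0. With 0.1 in place of 1 added to FPKM, Acaca was at 0.20, Acacb at 0.26, Elovl6 at 0.00 and Insig1 at 0.75. The difference between these genes' changes was not tested.

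**Figure D4:**
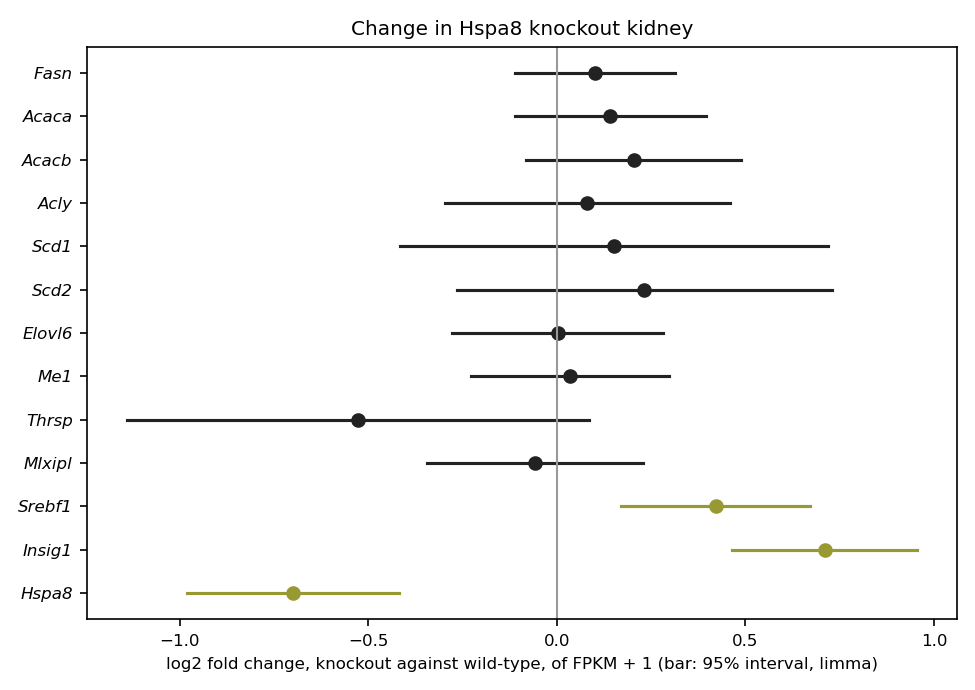
Log2 fold change of FPKM + 1 between Hspa8 knockout and wild-type kidney (x axis) for the 10 genes (black) and for Srebf1, Insig1 and Hspa8 (olive), with limma's 95% interval as a bar, n = 3 libraries per group. Every black bar crosses 0. The Insig1 bar begins at 0.47. The bars of Scd1, Scd2 and Acacb end above that, at 0.72, 0.73 and 0.49, and the other black bars end below it. The Fasn bar ends at 0.31, above the start of the Srebf1 bar at 0.17.

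The rest of the pathway was read from lists chosen for their role. Of 21 regulators of lipogenesis, all tested, 0 passed over all genes, 7 lay above 0 and 14 below, and the median log2 fold change was -0.0337. Insig1 and Srebf1 were the regulators with an unadjusted p under 0.05, against 5.17% of all tested genes. They were also the 2 regulators whose groups were apart and higher in the knockout, while 2 others were apart and lower. Of all tested genes, 2.01% were apart and higher and 8.57% apart and lower. Mid1ip1, the close relative of Thrsp, had 17.2 ± 0.69 FPKM (SD, n = 3) over the wild-type kidneys and 16.9 ± 0.96 FPKM (SD, n = 3) over the knockouts. Of 11 genes that supply acetyl-CoA and NADPH, 6 lay above 0 and 5 below with a median of 0.0059 and none passed. Among them Pgd, of the pentose phosphate pathway, had a log2 fold change of 0.08 and Me3, a mitochondrial malic enzyme, -0.14.

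Other elongases, desaturases and enzymes of the elongation cycle were read as well. Of 18 such genes 14 were tested, 5 lay above 0 and 9 below, the median was -0.0124 and none passed. Hacd1, a dehydratase of the elongation cycle, had a log2 fold change of -0.32 and its relative Hacd4 -0.18. Hacd1 was highest in wild-type replicate 3, at 10.4 FPKM against 5.03 to 6.22 FPKM elsewhere, as Thrsp was. Elovl3 was listed at 0 in every library. Of 11 genes for malonyl-CoA use and mitochondrial fatty acid synthesis 8 were tested, with 3 above 0, 5 below and a median of -0.0075. Cpt1b, a carnitine palmitoyltransferase, had -0.19 and Cbr4, of the mitochondrial pathway, -0.07, and none passed.

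Cholesterol synthesis and uptake genes, the SREBP2 side of the family, had a median log2 fold change of 0.0944, next to 0.0914 for the fatty acid genes. Of 19 genes 18 were tested, 13 lay above 0 and 5 below, and 0 passed over all genes. Fdps, farnesyl diphosphate synthase, had 11.7, 9.27 and 9.02 FPKM in the wild-type kidneys and 13.6, 11.5 and 12.4 FPKM in the knockouts, with 1 knockout value inside the wild-type range. For this list 2 genes had an unadjusted p under 0.05 and were higher in the knockout, and for the fatty acid genes none did. Of all 12174 tested genes, 116 had such a p and were higher, and 513 had such a p and were lower.

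**Figure D5:**
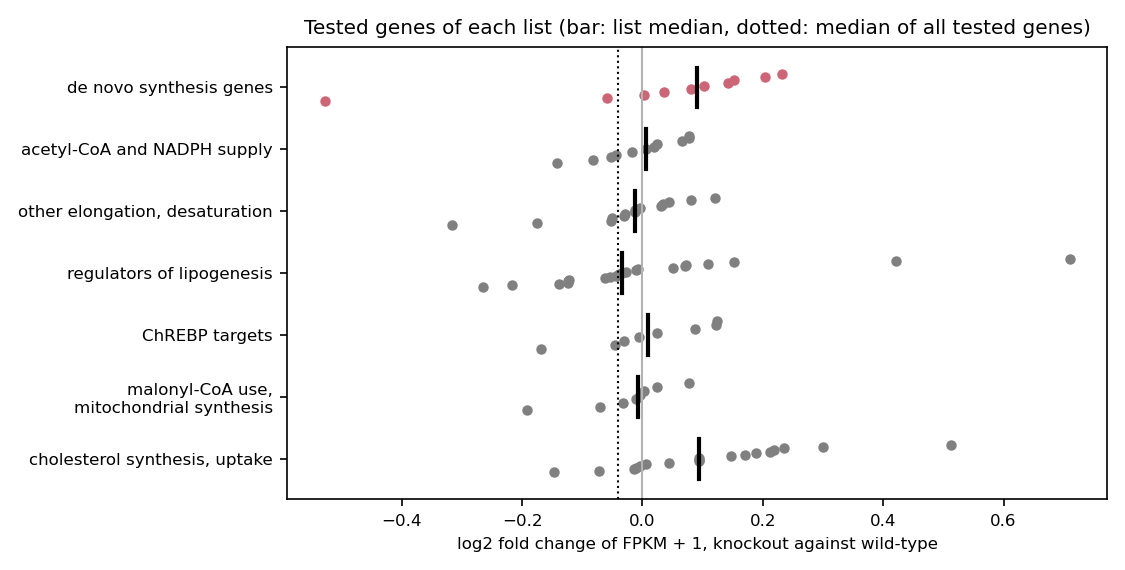
Log2 fold change of FPKM + 1 between Hspa8 knockout and wild-type kidney (x axis) for each tested gene of the lists named on the y axis, with the list median as a bar and the median of all 12174 tested genes (-0.0399) as a dotted line. The de novo synthesis genes (red) centre on 0.0914 with Thrsp alone at -0.53, and the regulators centre on -0.0337 with Srebf1 and Insig1 to the right.

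Sequencing depth cannot be read from FPKM and is unknown here. Summed FPKM ran from 381586 to 417123. All 6 libraries had the expression of males, with Xist at most at 0.0241 FPKM and Ddx3y at least at 10.7 FPKM. Of 11 tubule markers, Cdh16 among them, all were tested and 0 passed, with a median log2 fold change of 0.0234. The blood markers differed between libraries, with a sum of 52.1 to 59.8 FPKM in wild-type and of 420.2, 77.6 and 553.3 FPKM in knockout replicates 1, 2 and 3. Markers of glomerulus and endothelium were below 0 for all 8 tested (median -0.331), such as Pecam1 at -0.36, where 7896 of all 12174 tested genes lay below 0. Of the 8, 6 were lower with an unadjusted p under 0.05 (limma), as were 513 of all tested genes. The groups were apart and lower for 3 of the 8, against 8.57% of all. The 3 tested immune markers had a median of -0.138. The 4 brown fat markers summed to at most 0.771 FPKM. The part of these cells in the fatty acid genes was not tested.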

How the data were processed

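Kidney RNA of 3 wild-type and 3 Hspa8 knockout samples was sequenced from total RNA with a SMARTer mRNA library kit, per the labels' protocols. The authors deposited FPKM per gene and library; builds GRCm38 and mm10 are named in the submitters' processing notes. The sources used here do not give the aligner, quantifier, annotation, strandedness or read type. Samples were grouped by genotype label. Wild-type columns match their titles, and knockout columns (A8) were matched to the HSPA8KO titles of the same number; 0 other columns were left. No 2 libraries were identical.

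The test was limma 3.58.1 (R 4.3.3) on log2(FPKM + 1), with group as the only term and a variance trend. Its p-values were two-sided and adjusted by Benjamini-Hochberg over the 12174 genes with a mean of at least 1 FPKM, at a threshold of 0.05. It was checked on simulated data with independent noise in each library, not with a pattern shared between libraries such as that of wild-type replicate 3 and knockout replicate 2. Depth is unknown, so no counting interval is given, and low FPKM are less precise. Pair shares used an exact permutation test (scipy 1.17.1). All 34714 symbols matched RefSeq GRCm38.p6. Antisense genes overlap exons of Elovl6, Me1 and Mlxipl by 0.529%, 0.78% and 4.24% of exon bases, and a miRNA lies in Scd2 (1.12%). Shared 50-base stretches were counted in GENCODE transcripts on both strands.

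The members and lists were chosen with earlier results of these data known. Named are all members, Hspa8, Srebf1, Insig1, Adipoq, Plin1, Cidec and Cfd, and of each other list the genes that passed or the 2 with the smallest p; some of these are not reported here, and list counts include them. Fabp4, Mid1ip1, the tubule markers of the library pattern and the motifs were chosen after their values or sequences were seen. Of the listed genes, 1 of malonyl-CoA use and mitochondrial synthesis and 1 blood marker were not analysed here. Alternatives changed the pseudocount (0.1, 0.5), the filter (none, 5 FPKM), the scaling, the variance model, the replicate block or the libraries. Figures were drawn with matplotlib 3.10.9.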

Additional observations from a re-analysis of the deposited data

How the results depend on the processing

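Under 17 alternatives, 16 planned and 1 chosen after seeing the data (the pair of wild-type replicate 3 and knockout replicate 2 left out), 0 of the 10 genes were called, and the smallest adjusted p of any was 0.691 (limma). Of 166 values of single genes, 156 kept their direction and 10 turned it. The variance model, the replicate block and the filter cannot change a fold change, so their values kept it by design. All 10 turns came where libraries were left out. Without wild-type replicate 3 the log2 fold changes that turned were Acly -0.02, Elovl6 -0.05, Me1 -0.0642 and Mlxipl 0.03. Without knockout replicate 3 they were Acly -0.0632, Elovl6 -0.0032 and Mlxipl 0.0382. Elovl6 turned to -0.0896 without knockout replicate 1, Scd1 to -0.13 without wild-type replicate 1, and Me1 to -0.0827 without the pair. The other ends of these ranges, with 1 library left out, were 0.239 for Acly, 0.0995 for Elovl6, 0.127 for Me1, -0.139 for Mlxipl and 0.382 for Scd1. Leaving out each library in turn, members above 0 ran from 6 to 8, their median from 0.049 to 0.151, and members whose groups did not overlap from 1 to 4.

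The count of 4 arose without wild-type replicate 1 (Fasn, Acacb and Scd2 higher and Thrsp lower, where 20.6% of all genes were apart). It was 2 without knockout replicate 1 (17% of all genes apart), knockout replicate 2 (28.1%) or the pair (38%), and 0 with library sums (9.98%) or quantiles (9.87%) equalised. With a mean of at least 5 FPKM, 6 members were tested, 5 lay above 0 and 0 were apart. Over all genes 0 were called, with 629 at an unadjusted p under 0.05, and 5, all globin genes, were called without knockout replicate 2 or without the pair. The difference in the Acaca share ran from -4.59 to 1.9 percentage points and that in the Scd1 share from -6.72 to 4.2 with each library left out; without the pair they were 0.784 and 3.8. Hspa8 ran from -0.77 to -0.59. The cause of these shifts was not tested.

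The labels do not say whether the replicate numbers pair the samples. Same-numbered libraries had correlations of their deviations from the group means of 0.307, -0.215 and -0.321, and 0.55 joined wild-type replicate 3 and knockout replicate 2. Deviations within a group sum to 0, so these correlations depend on one another and do not settle whether the samples were paired. With the replicate block 0 members and 0 genes were called, and no call changed. Depth is unknown, which limits Acaca, Acacb, Elovl6 and Thrsp most.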

Other observations

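Acss2, which makes cytosolic acetyl-CoA from acetate, stood at 116.1 ± 5.2 FPKM (SD, n = 3) over the wild-type kidneys and 118.3 ± 10.6 FPKM (SD, n = 3) over the knockouts, above Acly in all 6 libraries. The ratio of the FPKM of Acss2 to those of Acly was 3.07, 3.64 and 3.86 in the wild-type kidneys and 2.97, 4.42 and 2.91 in the knockouts. It was highest in the wild-type and in the knockout library with the lowest Lrp2.

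Txnip, a glucose-responsive target of ChREBP, had 77.7, 175.3 and 162.5 FPKM in the wild-type kidneys and 119.3, 138.5 and 161.3 FPKM in the knockouts. Wild-type replicate 1 was the lowest library for both Txnip and Scd1, and knockout replicate 1 the next lowest for both, which is given as a description of 6 libraries.

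Car3, a carbonic anhydrase abundant in fat cells, had 43.6, 43.7 and 50.4 FPKM in the wild-type kidneys and 40.4, 30.9 and 31.4 FPKM in the knockouts, while Lipe, the hormone-sensitive lipase, had 4.02, 5.51 and 5.37 FPKM in the wild-type kidneys and 6.97, 6.23 and 5.75 FPKM in the knockouts. Neither group pair overlapped, the directions were opposite, and neither passed over all genes (limma adjusted p = 0.866 and 0.96). Of the 7 tested adipocyte markers, 1 was thus apart and higher in the knockout and 1 apart and lower. Of all tested genes, 2.01% were apart and higher and 8.57% apart and lower.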
